A study of Homo sapiens with 6 samples.

Results

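The nuclear genes for the subunits of the respiratory chain and the ATP synthase were described in cells labelled T24, a cultured line of human bladder carcinoma. Members were chosen by gene symbol: all names of the NDUFA, NDUFB, NDUFC, NDUFS and NDUFV series, SDHA to SDHD, the named UQCR and COX subunits, CYC1, and names that begin with ATP5 other than numbered pseudogenes. The rule found 80 of 56303 genes in the table, with 37 by name in complex I, 4 in complex II, 9 in complex III, 10 in complex IV and 20 under ATP synthase. The cells, wild type in genotype, had been transfected with a control siRNA (siNC) or an siRNA against FBXL6 (siFBXL6) for 48 h, with 3 libraries in each group, to ask which transcripts differ when the F-box gene FBXL6 is targeted. The libraries of each group are labelled 1 to 3, read here as replicate numbers. The paper also numbers its siRNAs against FBXL6 1 and 2, but names no siRNA 3 and only a single control siRNA. What the label numbers stand for is not given in the sources used here. Nor do the labels say whether the 3 libraries of a group came from separate cultures, so p-values measure the spread between these libraries. All 6 libraries carried the same batch label. Totals ran from 56814946 to 60968158 counts per library.

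The respiratory chain sits in the inner mitochondrial membrane. Complex I takes electrons from NADH and complex II from succinate, ubiquinone carries them to complex III, cytochrome c passes them to complex IV, where oxygen is reduced, and the ATP synthase uses the proton gradient that complexes I, III and IV build. Most subunits are encoded in the nucleus and imported, while a small core of complexes I, III and IV and of the ATP synthase is encoded by mitochondrial DNA, and tumour lines are known to differ widely in how far they rely on this pathway or on glycolysis.

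The targeted gene was examined before the members. FBXL6 had 6.19, 6.7 and 6.93 CPM in siNC and 6.58, 5.7 and 5.81 CPM in siFBXL6 libraries. The groups overlapped, with siFBXL6 replicate 1 inside the siNC range, and the log2 fold change of -0.13 ± 0.088 (standard error) did not pass the test (edgeR adjusted p = 0.247; exact two-sided permutation p = 0.2, where the smallest that 3 against 3 libraries can give is 0.1). Without siFBXL6 replicate 1 it was -0.20 (adjusted p = 0.112). A lower level of the targeted transcript was thus not detected, and every direction below is that of the libraries labelled siFBXL6 relative to those labelled siNC. The paper itself reports knockdown of FBXL6 by siRNA in T24 cells, from qRT-PCR and Western blot. It does not say whether that check used the RNA sequenced here. The span of FBXL6 lies within that of SLC52A2, and the treatment of reads that fall on overlapping genes is not given in the sources used here. The groups did differ elsewhere: GAPDH, the glycolytic glyceraldehyde-3-phosphate dehydrogenase, had 195, 185 and 185 CPM in siNC and 661, 655 and 653 CPM in siFBXL6 libraries, a log2 fold change of 1.80 ± 0.030 (edgeR adjusted p = 4.90e-31).

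Markers of the labelled cell type were measured in the same libraries. Of 12 epithelial and urothelial markers, 9 were tested, 2 higher and 5 lower, and their summed level was 3291, 3182 and 3264 CPM in siNC and 2909.9, 2910.3 and 2921 CPM in siFBXL6 libraries. Keratin 7 (KRT7) was the most abundant, with 1053, 1014 and 1048 CPM in siNC and 979, 994 and 977 CPM in siFBXL6 libraries. The keratin gene KRT5 had 443, 429.9 and 439 CPM in siNC and 311, 311 and 315 CPM in siFBXL6 libraries, the basal factor TP63 133, 136 and 133 and 147, 153 and 155 CPM in the same order, EPCAM 283, 263 and 276 and 239.8, 253 and 250.04 CPM and E-cadherin (CDH1) 116, 118 and 121 and 135, 129.5 and 133 CPM. The uroplakin gene UPK1A had 0 counts in every library, and UPK1B and UPK3A had at most 6 counts in a library. A further uroplakin gene, UPK2, had 88, 68 and 94 counts in siNC and 68, 74 and 74 counts in siFBXL6 libraries and was not called. Of the 3 mesenchymal markers, 1 was higher and 2 were lower, with sums of 2658, 2576 and 2513 CPM in siNC and 2266, 2308 and 2319 CPM in siFBXL6 libraries; fibronectin (FN1) was the most abundant, N-cadherin (CDH2) had 139, 136 and 138 CPM in siNC and 91.1, 93.1 and 90.8 CPM in siFBXL6 libraries, and vimentin (VIM) had 16.1, 15.6 and 15.1 and 26, 25.2 and 25 CPM in the same order. The 5 fibroblast markers summed to 37.9, 39.7 and 36.9 CPM in siNC and 35.4, 34.8 and 33.7 CPM in siFBXL6 libraries, mostly from COL1A1, the 1 gene of them called, lower. The 5 leukocyte markers summed to 7.49, 8 and 7.77 CPM in siNC and 20.5, 18.5 and 19.9 CPM in siFBXL6 libraries, mostly from CD68, which had 6.74, 6.54 and 6.81 and 19.5, 17.7 and 19 CPM in the same order and was the gene called higher. PTPRC stayed under 1 CPM in every library, and CD3E was at 0 counts in all but siNC replicate 2. The 3 endothelial markers summed to 1.85, 1.59 and 1.72 CPM in siNC and 2.38, 2.15 and 3.2 CPM in siFBXL6 libraries, with VWF the most abundant in siNC and PECAM1 in siFBXL6 libraries; PECAM1, at 0.427, 0.648 and 0.644 and 1.31, 1.08 and 1.79 CPM, was called higher and CDH5 was at most 12 counts. T24 is commonly described as rich in vimentin and poor in E-cadherin, and VIM and CDH1 here went the other way, while FN1 and CDH2 were abundant. The authors state that the line's identity was checked by short tandem repeats. The part of these differences in the results below was not tested.

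Among the respiratory chain genes, modest differences ran in both directions. Of the 80 members, 78 passed the filter on low counts. ATP5L2 (3 counts in all) and ATP5J2LP (0 counts) did not. A gene was called at an adjusted p under 0.05 from edgeR's quasi-likelihood test adjusted by Benjamini-Hochberg for 21298 tested genes. 40 of 78 members were called (51.3%), against 40.2% of all genes tested. 16 members were higher in the libraries labelled siFBXL6 (20.5%, against 20.5% of all genes), and 24 were lower (30.8%, against 19.8%). The members are well expressed, so that the 13812 tested genes at or above 2.57 CPM, the mean of the lowest tested member, are the nearer background: 53.6% of those were called, 27.2% higher and 26.4% lower. Read against them, the share of members called was near the background, which is not a result about the members.

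The sizes were small. The median log2 fold change over the tested members was -0.028, against -0.0071 over all genes tested, and single members ran from -0.49 (NDUFA3) to 0.27 (COX7A2). The median absolute log2 fold change was 0.18 among the called members and 0.28 among all called genes. With edgeR, 0 members were called with a difference of at least 1.5-fold, and DESeq2 also gave 0. Over all genes tested, 7.42% were called at that size by edgeR, and 4.85% of those at or above the lowest member's mean. An unadjusted edgeR p under 0.05 was found for 47 of 78 members (43 by DESeq2), against 9960 of 21298 genes tested. Among genes at or above the lowest member's mean it was found for 8303 of 13812. CPM did not overlap between the groups for 41 members (52.6%), against 48.2% of all genes tested and 60.2% of those at or above the lowest member's mean, so the members' share was below that of the nearer background. The split between directions moved with the scaling: 12 members higher and 29 lower with upper-quartile normalization or with library size alone, and 11 and 27 with a gene length correction. All genes moved the same way, with 18.6% higher and 22.2% lower with upper-quartile normalization, 18.5% higher and 22.4% lower with library size alone and 19.9% higher and 20.9% lower with the gene length correction. DESeq2, run with its own size factors and filter on 38192 genes, called 10 members higher and 20 lower, against 9.63% higher and 8.74% lower of those genes, so the filter and the scaling differed along with the test. In these bulk samples, fewer cells of a type and less RNA per cell cannot be told apart.

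**Figure D1:**
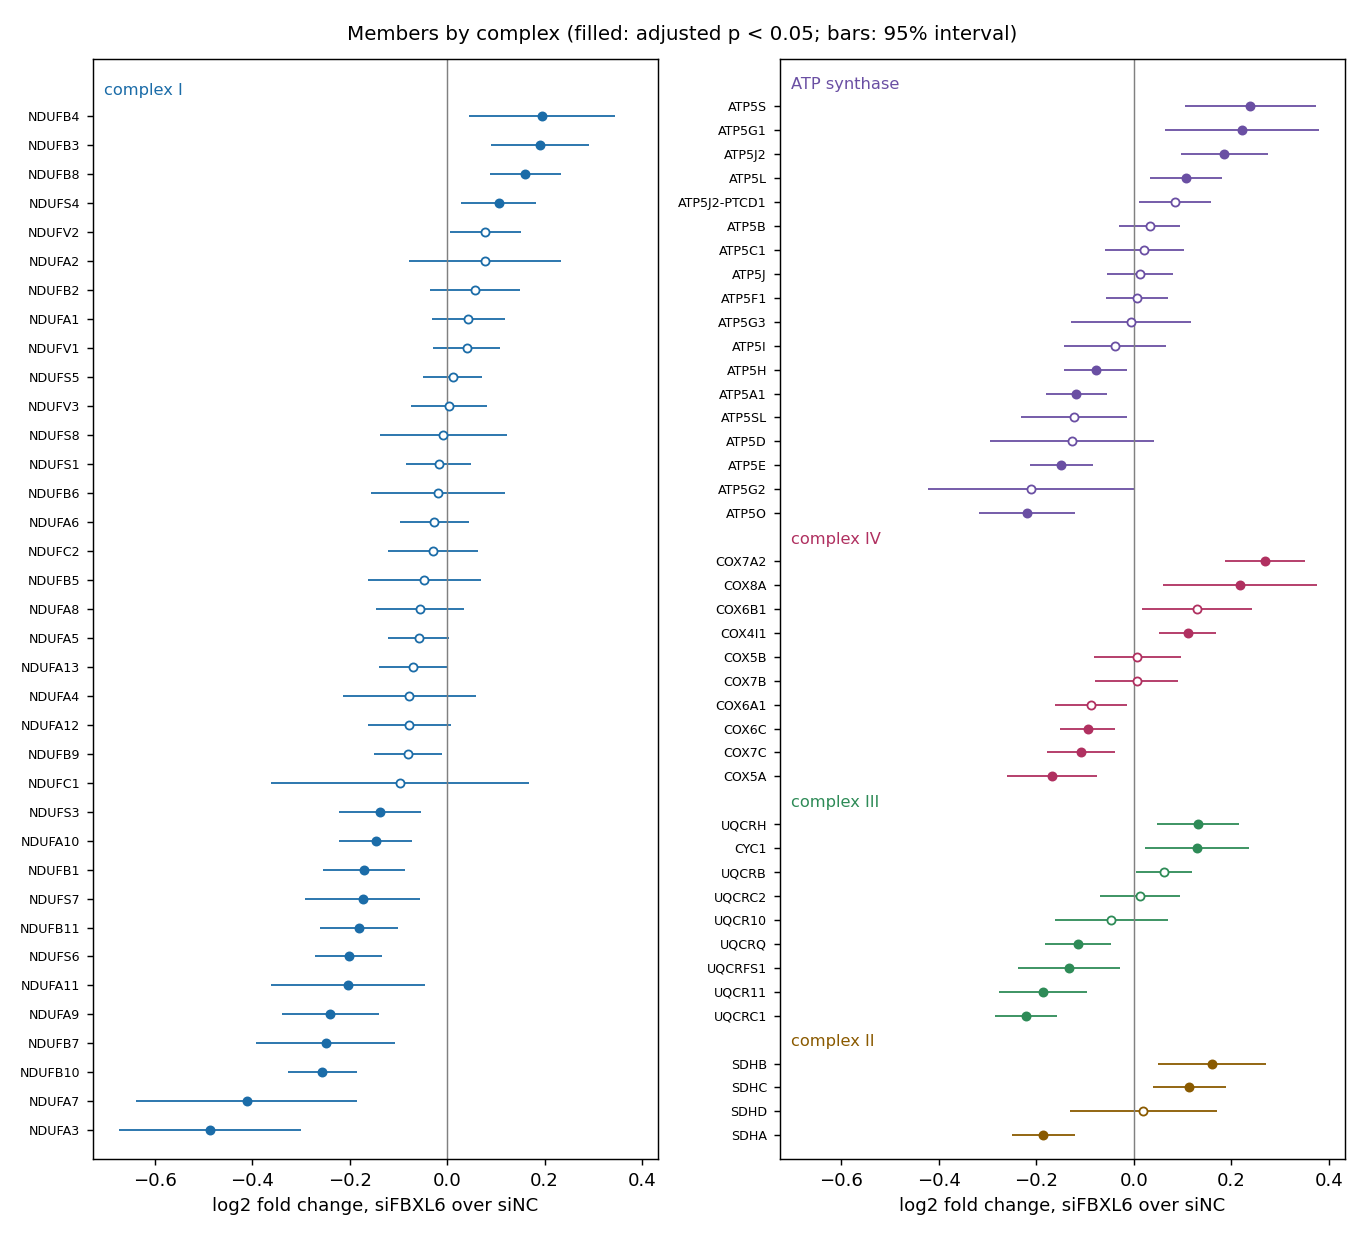
Log2 fold change of tested members, siFBXL6 over siNC libraries (3 each), by complex; bars are 95% intervals and filled points had an adjusted p under 0.05. Complex I has 12 filled points below 0, and no filled point is as far as 1.5-fold from 0.

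Promoter letters were compared, a property of the members that the rule did not use. Of the tested members, 63 matched RefSeq promoters (GRCh38.p14, 250 bases before to 50 after each start) by symbol or synonym, with 75 starts. Both strands were searched for letters of 3 motifs: GCGCANGCG for NRF1, CCGGAAG for the ETS factors that include GABPA, and AAGATGGC for YY1. The NRF1 letters were in 28% of members' promoters against 7.52% of all 35116 promoters, the ETS letters in 28% against 10.3%, and the YY1 letters in 17.3% against 2.89%. Among the 17899 promoters of tested genes the shares were 11.5%, 15.3% and 4.2%. A match is a description of letters and does not show that a factor binds. The stretches from 120 bases before to 30 after the start are shown for the 3 members with the smallest adjusted p in each direction that had an entry, with NDUFB10, UQCRC1 and NDUFS6 lower and COX7A2, NDUFB8 and NDUFB3 higher. They lie at chr16:1959418-1959567 (forward strand) for NDUFB10, chr3:48609617-48609766 (reverse strand) for UQCRC1, chr5:1801287-1801436 (forward strand) for NDUFS6, chr6:75250269-75250418 (reverse strand) for COX7A2 upstream, chr6:75243772-75243921 (reverse strand) for COX7A2 downstream, chr10:100529894-100530043 (reverse strand) for NDUFB8 and chr2:201071881-201072030 (forward strand) for NDUFB3. NDUFB8 has a further start, not shown, whose promoter held the YY1 letters. Capitals mark motif letters, here those of NRF1.
NDUFB10: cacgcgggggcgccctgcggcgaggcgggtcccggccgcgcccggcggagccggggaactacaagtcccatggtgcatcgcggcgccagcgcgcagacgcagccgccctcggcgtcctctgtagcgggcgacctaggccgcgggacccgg
UQCRC1: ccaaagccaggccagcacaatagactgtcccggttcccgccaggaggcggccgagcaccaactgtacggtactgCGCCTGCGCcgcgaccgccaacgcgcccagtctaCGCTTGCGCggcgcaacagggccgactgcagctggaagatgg
NDUFS6: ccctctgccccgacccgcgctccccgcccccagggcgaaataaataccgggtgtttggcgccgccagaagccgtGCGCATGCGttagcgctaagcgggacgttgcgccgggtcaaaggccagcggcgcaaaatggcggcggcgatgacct
COX7A2 (upstream start): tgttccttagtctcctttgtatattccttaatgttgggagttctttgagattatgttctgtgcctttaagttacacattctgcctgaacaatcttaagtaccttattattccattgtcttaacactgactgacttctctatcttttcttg
COX7A2 (downstream start): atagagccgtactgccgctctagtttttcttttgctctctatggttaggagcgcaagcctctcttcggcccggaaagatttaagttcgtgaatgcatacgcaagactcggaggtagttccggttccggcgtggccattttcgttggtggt
NDUFB8: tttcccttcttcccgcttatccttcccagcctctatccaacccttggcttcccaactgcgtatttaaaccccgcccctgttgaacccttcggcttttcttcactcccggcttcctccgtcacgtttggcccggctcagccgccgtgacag
NDUFB3: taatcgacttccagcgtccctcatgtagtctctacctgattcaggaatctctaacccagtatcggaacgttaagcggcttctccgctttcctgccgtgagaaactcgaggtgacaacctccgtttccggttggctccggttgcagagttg

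UQCRC1 held the NRF1 letters at 2 places in the stretch and NDUFS6 at 1, while the other promoters shown held none of the 3 motifs, also beyond the stretch. The whole UQCRC1 promoter held the YY1 letters as well. The matched members leaned more to lower than all members. Those with any of the 3 motifs had 8 called higher and 16 lower of 41, and those with none 3 and 7 of 22. Over all 78 tested members 16 were higher and 24 lower. Without an entry were the higher members SDHC, CYC1, ATP5J2 and ATP5S and the lower COX6C, among others. Over the matched members, the 21 with the NRF1 letters had 1 called higher and 10 lower, with a median log2 fold change of -0.13. The 42 without them had 10 higher and 13 lower, with a median of -0.0022. Over the 1905 tested genes with these letters, 22% were higher and 27% lower, and the median was -0.019, against -0.011 over the 10495 without them. Members with the ETS letters had 5 higher and 6 lower of 20, and those with the YY1 letters 3 higher and 6 lower of 12. Over all tested genes with the ETS letters 27.3% were higher and 21.6% lower, and with the YY1 letters 22.6% were higher and 25.6% lower. The medians of the members with these letters were -0.0049 and -0.10, against -0.078 and -0.055 for members without them.

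Levels were compared between genes per length, as RPKM (TMM-normalized CPM per kilobase of the summed exon length in the table; mean ± SD, n = 3). In siNC libraries the tested members ran from 0.941 to 492 RPKM, with a median of 16.7, against a median of 2.4 over all genes tested. The complex IV genes had the highest median level, 39 RPKM, followed by complex III at 19.8, ATP synthase at 15, complex I at 14.4 and complex II at 5.72. The most abundant member was NDUFS5, a small subunit on the intermembrane side of complex I, at 492 ± 12.2 RPKM in siNC and 495 ± 7.79 RPKM in siFBXL6 libraries. COX6C, a small membrane subunit of complex IV, followed at 240.1 ± 4.98 RPKM in siNC and 225 ± 3.66 RPKM in siFBXL6 libraries. UQCRH, the hinge protein of complex III, had 88.5 ± 7.98 RPKM in siNC and 97 ± 3.9 RPKM in siFBXL6 libraries, and ATP5J, coupling factor 6 in the stalk of the ATP synthase, had 82.3 ± 2.95 RPKM in siNC and 83 ± 2.96 RPKM in siFBXL6 libraries. SDHA led complex II at 18.6 ± 0.636 RPKM in siNC and 16.3 ± 0.351 RPKM in siFBXL6 libraries. This order of the most abundant member in each complex was the same in both groups, and of the 5, NDUFS5 and ATP5J were not called, at log2 fold changes of 0.011 ± 0.030 and 0.013 ± 0.033, both of which turn sign with upper-quartile normalization. ATP5J shares 20.2% of its exon bases with GABPA on the opposite strand, and whether the counting used the strand is not given in the sources used here.

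**Figure D2:**
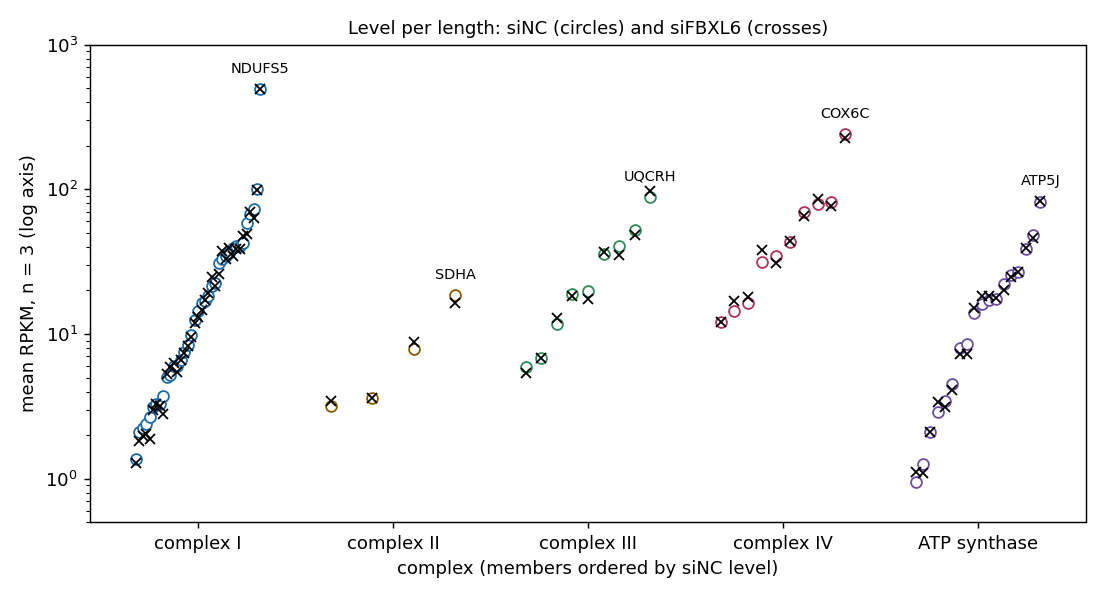
Mean RPKM (log axis, n = 3) of each tested member in siNC (circles) and siFBXL6 (crosses) libraries, ordered by level within each complex. NDUFS5 stands highest, at 492 RPKM in siNC, and circles and crosses lie close together along the whole range.

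Complex I is the largest of the complexes. Of its 37 genes, all tested, 5 were higher (13.5%) and 12 lower (32.4%), against 27.2% and 26.4% of genes at or above the lowest member's mean, with a median log2 fold change of -0.055; upper-quartile normalization, library size alone and the gene length correction each gave 3 higher and 15 lower. NDUFA4 carries a complex I name but is known as a subunit of complex IV; it was not called, so neither complex gains or loses a call by its place.

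In the peripheral arm that oxidises NADH (N module), NDUFS6, a zinc-binding accessory subunit whose promoter is shown above, had 100.3, 109.9 and 108 CPM in siNC and 91.8, 91.5 and 93.6 CPM in siFBXL6 libraries. All 3 siFBXL6 libraries lay below all siNC libraries, and the log2 fold change was -0.20 ± 0.034 (adjusted p = 7.75e-06). NDUFS4, an accessory subunit needed for a stable N module, had 42.8, 42.8 and 42.9 and 47.2, 44.9 and 46.2 CPM in the same order, without overlap, at 0.11 ± 0.038 (adjusted p = 0.023). The catalytic core genes NDUFV1, which carries the NADH site, and NDUFS1 were not called. In the part that reduces ubiquinone (Q module), NDUFA9, an accessory subunit at the joint of the arms, had 25.1, 23.9 and 25.5 and 21.5, 21 and 20.5 CPM, a log2 fold change of -0.24 ± 0.049 (adjusted p = 0.000154). NDUFA7 had 4.89, 5.03 and 5.83 and 4.47, 4.14 and 3.24 CPM, all siFBXL6 libraries lower, at -0.41 ± 0.11 (adjusted p = 0.00318); it shares 33.5% of its exon bases with other genes. The core iron-sulfur subunit NDUFS7 was lower at -0.17 ± 0.058 (adjusted p = 0.0162) with 49.1% of its exon bases shared, and the core subunit NDUFS3 at -0.14 ± 0.041 (adjusted p = 0.00734) with siFBXL6 replicate 1 above the lowest siNC library. Leaving out single libraries took the adjusted p of these genes over 0.05 for NDUFS3 without siNC replicate 2 (0.0576) and siNC replicate 3 (0.0618), for NDUFS7 without siNC replicate 2 (0.0722) and siFBXL6 replicate 3 (0.126), for NDUFA7 without siFBXL6 replicate 3 (0.0517) and for NDUFS4 without siNC replicate 2 (0.0587), siFBXL6 replicate 1 (0.116) and siFBXL6 replicate 3 (0.0666). Among the other alternatives the adjusted p was over 0.05 for NDUFS7 with the DESeq2 test (0.0605) and for NDUFS4 with upper-quartile normalization (0.0662), library size alone (0.0759), the gene length correction (0.26) and the DESeq2 test (0.0566). The NDUFS4 log2 fold change moved to 0.055 with the gene length correction.

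In the membrane arm, NDUFA3 had the lowest log2 fold change of all members. Its level was 6.62, 6.38 and 6.67 CPM in siNC and 4.2, 5 and 4.83 CPM in siFBXL6 libraries. Every siFBXL6 library was below every siNC library, and the log2 fold change was -0.49 ± 0.092 (adjusted p = 5.29e-05). NDUFB10, which faces the intermembrane space, had the smallest adjusted p of any member: 61.3, 63.1 and 63.2 CPM in siNC and 52.8, 51.2 and 53.1 CPM in siFBXL6 libraries, no overlap, and a log2 fold change of -0.26 ± 0.035 (adjusted p = 2.18e-07). NDUFB7 was lower at -0.25 ± 0.070 (adjusted p = 0.00433), though siFBXL6 replicate 3 lay above siNC replicate 1. The accessory subunits NDUFA11, NDUFB11, NDUFB1 and NDUFA10 were also lower, at log2 fold changes of -0.20, -0.18, -0.17 and -0.15 (adjusted p = 0.0345, 0.000336, 0.00112 and 0.00161). NDUFB11 shares 44.9% of its exon bases with RBM10 on the opposite strand. Against these, NDUFB8 had 78.9, 85.2 and 89.3 CPM in siNC and 95.7, 94.2 and 93.3 CPM in siFBXL6 libraries. It was higher without overlap, at 0.16 ± 0.036 (adjusted p = 0.000392), with 48.5% of its exon bases shared with other genes. NDUFB3 was higher at 0.19 ± 0.049 (adjusted p = 0.00192), also without overlap, and NDUFB4, with 9.32, 11 and 9.09 and 11.5, 11.3 and 10.9 CPM, at 0.20 ± 0.073 (adjusted p = 0.0325), where siNC replicate 2 lay within the siFBXL6 range. The adjusted p was over 0.05 for NDUFA11 without siNC replicate 3 (0.298), siFBXL6 replicate 1 (0.0729) and siFBXL6 replicate 3 (0.16), for NDUFB7 without siNC replicate 3 (0.0546) and for NDUFB4 without siNC replicate 1 (0.112), siNC replicate 3 (0.163), siFBXL6 replicate 1 (0.106) and siFBXL6 replicate 2 (0.0832). The NDUFA11 log2 fold change moved to -0.11 without siNC replicate 3. With all libraries the adjusted p was over 0.05 for NDUFA11 with the GC correction (0.0571) and the DESeq2 test (0.116) and for NDUFB4 with upper-quartile normalization (0.0541), library size alone (0.0649), the gene length correction (0.0528) and the DESeq2 test (0.102).

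Complex II, succinate dehydrogenase, is the complex shared with the citric acid cycle and the only complex here without a mitochondrially encoded subunit. Of its 4 genes, 3 were called (75%, against 53.6% of genes at or above the lowest member's mean), 2 higher and 1 lower. SDHA, the flavoprotein that oxidises succinate, had 162, 154 and 152 CPM in siNC and 138, 134 and 139 CPM in siFBXL6 libraries. All siFBXL6 libraries were lower, with a log2 fold change of -0.19 ± 0.032 (adjusted p = 1.29e-05). Its value is uncertain where reads are shared with copies: the 3 SDHA pseudogenes in the table held up to 24.9% as many counts as SDHA in a library. SDHB, the iron-sulfur subunit, had 18.4, 18.8 and 20.8 CPM in siNC and 22.5, 21.4 and 21 CPM in siFBXL6 libraries. The siFBXL6 libraries were higher, with siNC replicate 3 close below them, at 0.16 ± 0.054 (adjusted p = 0.0167). Of the membrane anchors, SDHC had 45.4, 45.2 and 44.8 and 48.4, 50.1 and 48.1 CPM and was higher at 0.11 ± 0.037 (adjusted p = 0.0125), while SDHD, at 0.020 ± 0.074, was not called. The adjusted p was over 0.05 for SDHB without siNC replicate 1 (0.0795), siNC replicate 2 (0.0794) and siFBXL6 replicate 1 (0.0976) and for SDHC without siFBXL6 replicate 2 (0.0809). Among the other alternatives the adjusted p was over 0.05 for SDHB with the GC correction (0.0634) and the DESeq2 test (0.0562). With the GC correction 1 was called higher and 1 lower. SDHA made up 65.7% of the summed CPM of complex II, which was 234, 226 and 227 in siNC and 218, 214 and 217 in siFBXL6 libraries.

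Complex III, the cytochrome bc1 complex, had 2 genes higher and 4 lower of 9 (66.7% called, against 53.6% of genes at or above the lowest member's mean), with a median log2 fold change of -0.046; with upper-quartile normalization or library size alone 1 was higher and 4 lower, and with the gene length correction the 4 called were all lower. Its nuclear catalytic subunits parted: UQCRFS1, the Rieske iron-sulfur protein, was lower at -0.13 ± 0.051 (adjusted p = 0.037), and CYC1, cytochrome c1, with 24.3, 22.5 and 23.2 and 26.2, 23.5 and 26.8 CPM, was higher at 0.13 ± 0.052 (adjusted p = 0.0457), where siFBXL6 replicate 2 lay inside the siNC range. Of the core proteins, UQCRC1, with the NRF1 letters in its promoter above, had 129.999, 132 and 134 CPM in siNC and 115, 114 and 111 CPM in siFBXL6 libraries. Every siFBXL6 library was lower, and the log2 fold change was -0.22 ± 0.031 (adjusted p = 3.91e-07). UQCRC2, its partner, was not called and had 35.9, 36.1 and 34.6 and 36, 35.9 and 35.7 CPM. Among the small subunits, UQCR11 had 39.5, 42.7 and 45.5 and 38.5, 36.8 and 36.9 CPM and was lower without overlap at -0.19 ± 0.044 (adjusted p = 0.000815), and UQCRQ, which binds near the ubiquinone site, was lower at -0.11 ± 0.033 (adjusted p = 0.00542). UQCRH had 114, 123 and 136 CPM in siNC and 132, 135 and 143 CPM in siFBXL6 libraries. It was higher at 0.13 ± 0.041 (adjusted p = 0.01), but siNC replicate 3 lay above siFBXL6 replicates 1 and 2. Its near-identical copy UQCRHL had 11.6, 11.7 and 11 and 11.5, 13.7 and 12.7 CPM, so a part of the reads may be shared. Without siFBXL6 replicate 3, 2 genes of complex III were called in place of 6. The adjusted p was over 0.05 for UQCRH without siNC replicate 1 (0.0892) and siFBXL6 replicate 3 (0.105), for UQCRFS1 without siNC replicate 1 (0.0804), siNC replicate 2 (0.0693), siNC replicate 3 (0.0569), siFBXL6 replicate 2 (0.0638) and siFBXL6 replicate 3 (0.162), for UQCRQ without siFBXL6 replicate 3 (0.0747) and for CYC1 without siNC replicate 2 (0.188), siNC replicate 3 (0.0879), siFBXL6 replicate 1 (0.162) and siFBXL6 replicate 3 (0.246). The UQCRH log2 fold change moved to 0.072 without siNC replicate 1 and to 0.20 without siNC replicate 3. With all libraries the adjusted p was over 0.05 for UQCRH with the gene length correction (0.0595), the GC correction (0.0629) and the DESeq2 test (0.233), for UQCRFS1 with no filter on low counts (0.0706) and the DESeq2 test (0.109) and for CYC1 with upper-quartile normalization (0.0905), library size alone (0.101), no filter on low counts (0.0562), the gene length correction (0.0877) and the DESeq2 test (0.124).

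Complex IV, cytochrome c oxidase, had 3 genes higher and 3 lower of 10 (60% called, against 53.6% of genes at or above the lowest member's mean), with a median log2 fold change of 0.0066; the gene length correction gave 2 and 4. COX4I1, which with COX5A caps the mitochondrially encoded core on the matrix side and binds ATP, had 378, 371 and 388 CPM in siNC and 413, 402 and 412 CPM in siFBXL6 libraries. It was higher in every siFBXL6 library, at 0.11 ± 0.029 (adjusted p = 0.00226). COX5A had 44.3, 51.7 and 50.8 and 45.3, 42 and 43.3 CPM in the same order and was lower at -0.17 ± 0.045 (adjusted p = 0.00294), with siFBXL6 replicate 1 above siNC replicate 1. COX7A2, the ubiquitous form of a subunit at the interface between complexes, had the highest log2 fold change of all members. Its level was 54.9, 64.4 and 61.9 CPM in siNC and 72, 72.2 and 74.3 CPM in siFBXL6 libraries. No library overlapped, and the log2 fold change was 0.27 ± 0.041 (adjusted p = 1.62e-06). The small membrane subunit COX8A, with 7.39, 7.51 and 7.17 and 8.17, 9.26 and 8.25 CPM, was higher at 0.22 ± 0.078 (adjusted p = 0.024), with 34.5% of its exon bases shared with another gene. COX7C and COX6C, both small membrane subunits, were lower at -0.11 ± 0.034 (adjusted p = 0.0098) and -0.094 ± 0.028 (adjusted p = 0.00641). COX6C had 742, 719 and 748 CPM in siNC and 686, 680.3 and 702 CPM in siFBXL6 libraries, without overlap. Without siFBXL6 replicate 2, 3 genes of complex IV were called in place of 6. The adjusted p was over 0.05 for COX8A without siNC replicate 3 (0.0698) and siFBXL6 replicate 2 (0.165), for COX5A without siNC replicate 2 (0.0507), for COX7C without siNC replicate 1 (0.0654), siFBXL6 replicate 2 (0.0557) and siFBXL6 replicate 3 (0.0594) and for COX6C without siFBXL6 replicate 2 (0.0546). The COX7C log2 fold change moved to -0.067 without siNC replicate 1. Among the other alternatives the adjusted p was over 0.05 for COX8A with the gene length correction (0.0795) and the DESeq2 test (0.086).

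The names under ATP synthase took in 18 tested genes, 4 higher and 4 lower (44.4% called, against 53.6% of genes at or above the lowest member's mean), with a median log2 fold change of 0.00059; upper-quartile normalization and library size alone gave 3 and 5. The table uses older symbols for them. In the catalytic F1 head, 2 of 5 genes were called, each lower. ATP5A1, the alpha subunit, had 86.8, 86.3 and 86.9 CPM in siNC and 80.5, 79.3 and 79.7 CPM in siFBXL6 libraries, without overlap, at -0.12 ± 0.031 (adjusted p = 0.00208). The beta subunit gene ATP5B, which carries the catalytic sites, was not called and had 90.7, 89.7 and 87.9 and 91.9, 90.01 and 92.5 CPM. ATP5E, the epsilon subunit of the rotor, was lower at -0.15 ± 0.032 (adjusted p = 0.000243), again without overlap. In the c-ring, whose identical mature subunit is made from ATP5G1, ATP5G2 and ATP5G3, ATP5G1 was higher with 7.08, 7.61 and 8.12 and 8.53, 8.68 and 9.39 CPM, at 0.22 ± 0.078 (adjusted p = 0.0207). ATP5G2, with 4.74, 5.37 and 4.93 and 3.89, 4.21 and 4.91 CPM, had a log2 fold change of -0.21 ± 0.10 that did not pass (adjusted p = 0.109, but 0.0355 without siFBXL6 replicate 3), and the ATP5G2 log2 fold change ran from -0.31 there to -0.14 without siFBXL6 replicate 1 (adjusted p = 0.378). For ATP5G1 the adjusted p was over 0.05 without siNC replicate 1 (0.101), siNC replicate 2 (0.0513) and siFBXL6 replicate 3 (0.117). With all libraries the adjusted p was over 0.05 for ATP5G1 with the GC correction (0.0533) and the DESeq2 test (0.0768).

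In the stalk that holds the head in place, ATP5O, the oligomycin sensitivity protein, had 27.9, 27 and 29.8 CPM in siNC and 25, 24.3 and 23.5 CPM in siFBXL6 libraries. Every siFBXL6 library was lower, at -0.22 ± 0.048 (adjusted p = 0.000382); 25.4% of its exon bases are shared with other genes. ATP5H, subunit d, was lower at -0.078 ± 0.032 (adjusted p = 0.0481), where siFBXL6 replicate 1 lay above siNC replicate 2. Of the small membrane subunits, ATP5J2, subunit f, had 33.4, 38.4 and 37.6 CPM in siNC and 42.2, 40.8 and 41.6 CPM in siFBXL6 libraries. It was higher without overlap, at 0.19 ± 0.044 (adjusted p = 0.000874), as was ATP5L, subunit g, at 0.11 ± 0.036 (adjusted p = 0.0168). ATP5S, ATP5SL and the read-through ATP5J2-PTCD1 carry ATP5 names but are not subunits. ATP5S had the highest log2 fold change of the ATP5 names, with 9.97, 10.9 and 11 CPM in siNC and 12.2, 12.7 and 12.8 CPM in siFBXL6 libraries, at 0.24 ± 0.066 (adjusted p = 0.00352). ATP5J2-PTCD1 shares 83.3% of its exon bases with PTCD1, so its count does not stand for the read-through transcript alone. The adjusted p was over 0.05 for ATP5L without siNC replicate 2 (0.0541) and siFBXL6 replicate 1 (0.07) and for ATP5H without siNC replicate 1 (0.103), siNC replicate 3 (0.121), siFBXL6 replicate 1 (0.0511), siFBXL6 replicate 2 (0.193) and siFBXL6 replicate 3 (0.15). Among the other alternatives the adjusted p was over 0.05 for ATP5L with upper-quartile normalization (0.0526) and library size alone (0.061) and for ATP5H with DESeq2 size factors (0.053), no filter on low counts (0.0606), the gene length correction (0.0523) and the DESeq2 test (0.0639).

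**Figure D3:**
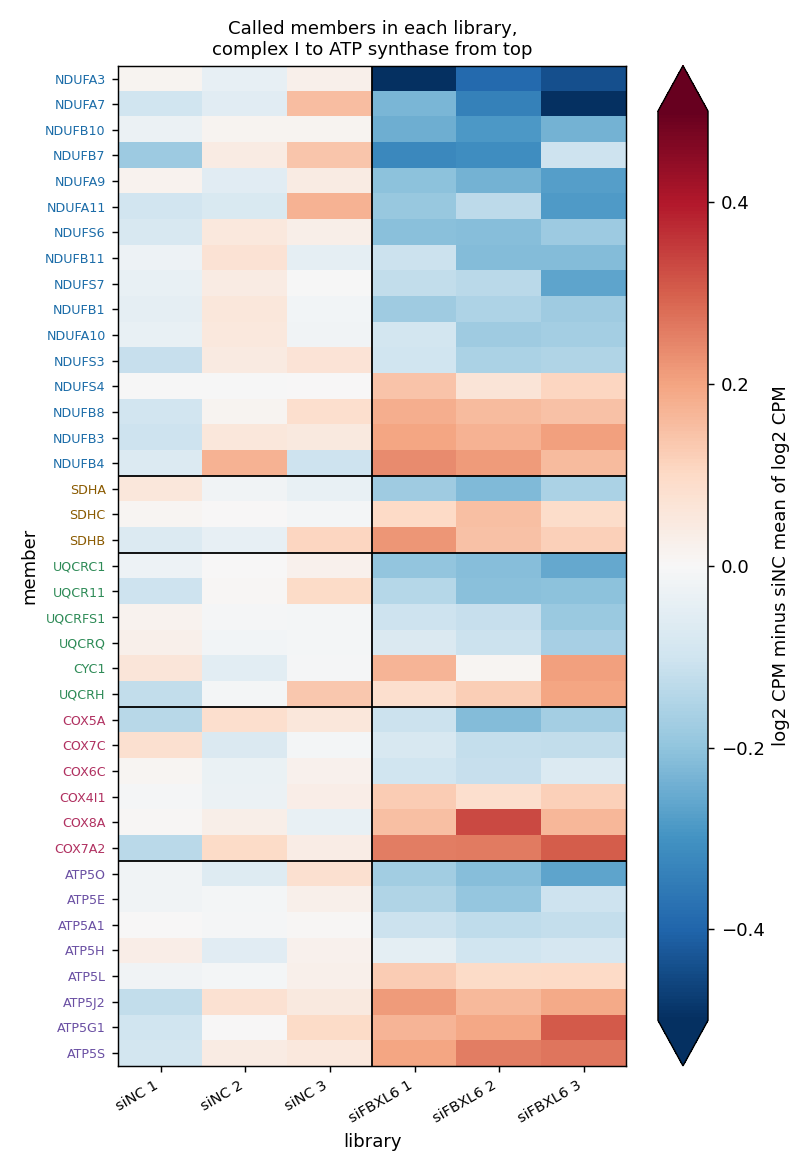
Log2 CPM of called members in each library relative to the siNC mean, grouped by complex from complex I at the top to ATP synthase at the bottom; colours saturate at 0.5 on the log2 scale. NDUFA3 and NDUFA7 had the lowest log2 fold changes (-0.49 and -0.41) and COX7A2 the highest (0.27).

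Sums over a complex moved less than its genes. The CPM of all 78 tested members summed to 5559, 5560.4 and 5692 in siNC and 5535, 5462 and 5545 in siFBXL6 libraries, a difference of -1.6% between the group means, without overlap, siFBXL6 replicate 3 just under siNC replicate 1. For complex I the sums were 1927, 1955 and 1986 in siNC and 1931, 1902 and 1926 in siFBXL6 libraries, and the groups overlapped, siFBXL6 replicate 1 lying above siNC replicate 1. The complex III sums were 807, 809.9 and 841 in siNC and 822, 810.4 and 818 in siFBXL6 libraries, and the groups overlapped. Those of complex IV were 1592, 1584 and 1634 in siNC and 1583, 1561 and 1594 in siFBXL6 libraries, those of the ATP synthase 998, 986 and 1004 in siNC and 981, 974 and 989 in siFBXL6 libraries, and both overlapped as well. Of the single complexes only complex II, given above, was lower in all 3 siFBXL6 libraries, and it follows SDHA.

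The mitochondrially encoded subunits were then set beside the nuclear ones. Of the 13, 9 were called by edgeR, all lower (69.2%, against 26.4% lower among genes at or above the lowest nuclear member's mean and 19.8% over all genes), and their median log2 fold change was -0.17. MT-ND5, a proton-pumping subunit of complex I, had 2499.8, 2573 and 2578 CPM in siNC and 2034, 2073 and 2066 CPM in siFBXL6 libraries. The groups did not overlap, and the log2 fold change was -0.31 ± 0.026 (adjusted p = 4.79e-12). MT-CO1, the catalytic subunit of complex IV, had 7786, 8113 and 8265 and 6749, 6854 and 6814 CPM in the same order, again apart, at -0.24 ± 0.025 (adjusted p = 6.54e-10). MT-CO3, MT-ATP6, MT-ATP8 and MT-ND6 were not called. The summed CPM of the 13 was 45221, 48795 and 49460 in siNC and 43003, 42962 and 43980.4 in siFBXL6 libraries, -9.43% between the means, and siNC replicate 1 stood between the other siNC libraries and the siFBXL6 libraries. These transcripts are made by another polymerase in another compartment, and the direction of their difference relative to the nuclear sums was not tested.

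Genes of the same pathway outside the rule were counted from lists, to be read beside the 27.2% higher and 26.4% lower among genes at or above the lowest member's mean. Of 11 other subunits and isoforms, 6 were tested, and 3 were called by edgeR, all higher. CYCS, cytochrome c itself, had 309.96, 299 and 307 CPM in siNC and 356, 344 and 347 CPM in siFBXL6 libraries. It was higher in every siFBXL6 library, at 0.19 ± 0.029 (adjusted p = 1.34e-06). COX7A2L, a relative of COX7A2 found in supercomplexes of the chain, was higher too, with 36, 34 and 34.8 and 40.4, 40.3 and 40.1 CPM, at 0.21 ± 0.040 (adjusted p = 7.62e-05). Of 18 complex I assembly factors, 15 were tested, 3 higher and 5 lower. NDUFAF2, an assembly chaperone, had 69.2, 67.8 and 67.8 and 79.3, 78.9 and 81.2 CPM, at 0.22 ± 0.032 (adjusted p = 5.82e-07), and ACAD9, a dehydrogenase-like assembly factor, had 60.8, 57.3 and 62.7 and 51.7, 51.7 and 54.3 CPM, at -0.20 ± 0.038 (adjusted p = 5.85e-05). Neither overlapped between the groups. Of 36 assembly factors of complexes II to V, 35 were tested, 5 higher and 11 lower. The copper chaperone COX17 had 47.7, 50.04 and 47.3 CPM in siNC and 62.8, 66.6 and 61.6 CPM in siFBXL6 libraries. It was higher at 0.40 ± 0.037 (adjusted p = 1.14e-10), more than any member. ATPAF1, which assembles the F1 head, had 26.2, 26.2 and 26.4 CPM in siNC and 21.1, 20.9 and 20.3 CPM in siFBXL6 libraries. It was lower in all siFBXL6 libraries, at -0.34 ± 0.047 (adjusted p = 4.17e-07). COX14 had the lowest log2 fold change of this list, -0.65 ± 0.10 (adjusted p = 2.45e-06). Its level was 5.95, 6.64 and 8.12 CPM in siNC and 4.51, 4.42 and 4.21 CPM in siFBXL6 libraries, without overlap.

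Of 13 regulators of respiratory genes, all tested, 1 was higher and 3 were lower. That is 30.8% called, against 40.2% of all genes and 53.6% of genes at or above the lowest respiratory chain member's mean. YY1, a zinc-finger factor with sites in many promoters of these genes, had 99.2, 108 and 104 CPM in siNC and 80.5, 79.97 and 76.9 CPM in siFBXL6 libraries. The groups stood apart, at -0.39 ± 0.034 (adjusted p = 1.48e-11). MYC, the growth regulator, had 62.4, 67 and 67.4 CPM in siNC and 79.8, 77.2 and 77.4 CPM in siFBXL6 libraries, and was the gene called higher, at 0.25 ± 0.035 (adjusted p = 2.71e-07). The factors NRF1 and GABPA, known for binding at promoters of respiratory genes, and the mitochondrial factor TFAM were not called. The coactivator gene PPARGC1A, with 4.24, 4.19 and 4.25 and 2.58, 2.72 and 2.69 CPM, and the mitochondrial RNA polymerase gene POLRMT, with 38.7, 37.3 and 37.7 and 35.9, 32.8 and 33.8 CPM, were lower at -0.67 ± 0.11 (adjusted p = 8.64e-06) and -0.15 ± 0.042 (adjusted p = 0.00454).

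Directions differed with base composition and on chromosome 19, the only one of the 22 chromosomes with members that was set apart. Exon GC content and the log2 fold change were weakly related across the tested members (Pearson's r = -0.25, Spearman's rho = -0.22, n = 78), genes that share libraries and are not independent replicates; over all genes rho was -0.043 (n = 21285). The 17 members with over 55% GC had a median of -0.13, 2 higher and 8 lower, against a median of -0.036, 16% higher and 21.1% lower over all genes in that range. The 27 members with at most 45% GC had a median of 0.0057, 6 higher and 5 lower, against 0.0036, 23.1% and 20.7%. Of the 11 members on chromosome 19, 7 were called, all lower, with a median of -0.17, where all 1462 tested genes of that chromosome had a median of -0.059 and 22.1% called lower. NDUFA3, NDUFA7, NDUFB7, NDUFS7, NDUFA11, UQCR11 and UQCRFS1 are those 7. NDUFA3, NDUFB7, NDUFS7, NDUFA11 and UQCR11 are also among the 8 lower members with over 55% GC, so both patterns rest in part on the same genes. The median of the members on other chromosomes was -0.0060. With a correction for GC content, 14 members were higher and 26 lower; the part of base composition in these directions was not tested further.

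**Figure D4:**
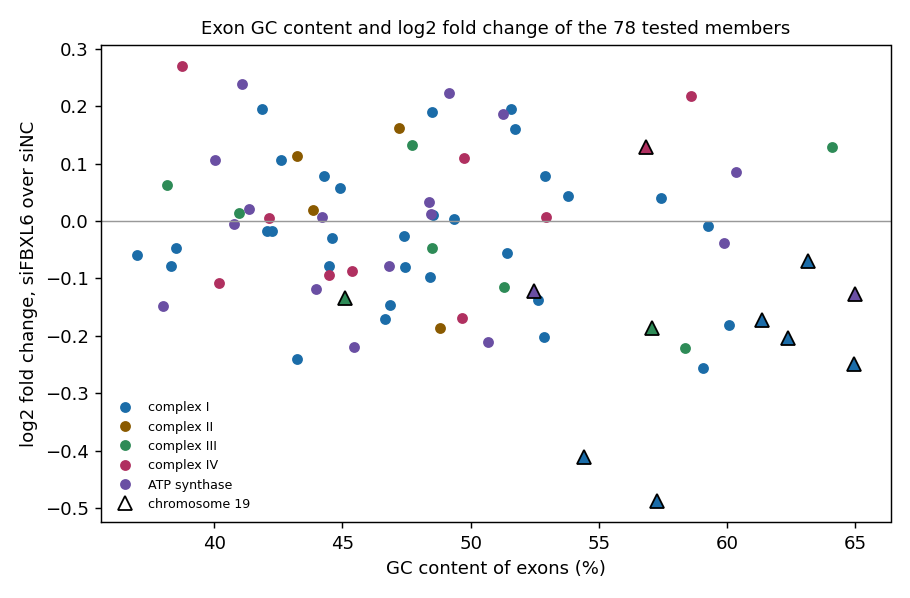
Exon GC content (percent) and log2 fold change (siFBXL6 over siNC) of the 78 tested members, coloured by complex, with triangles for genes on chromosome 19. The triangles lie below 0 except COX6B1, with NDUFA3 and NDUFA7 lowest.

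Libraries of the same group did not place the members alike. Of the 78 tested members, 39 had their lowest siNC value in replicate 1 (50%, against 33.4% of genes at or above the lowest member's mean) and 39 their highest in replicate 3 (50%, against 32.3%). Relative to the siNC mean, the median member stood at -0.025, -0.0060 and 0.023 on the log2 scale in the siNC libraries and at -0.049, -0.038 and -0.024 in the siFBXL6 libraries, so siNC replicate 1 lay level with siFBXL6 replicate 3. The median log2 fold change of the members was -0.049 without siNC replicate 1, -0.048 without replicate 2 and -0.0058 without replicate 3. The median difference between the groups was similar in size to the shift of a single siNC library.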

How the data were processed

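Stranded mRNA libraries of T24 cells were sequenced, 3 labelled siNC and 3 siFBXL6. The authors deposited whole-number counts per gene, not normalized, made with featureCounts (Subread 1.5.1) on GRCh38. Their methods name Trimmomatic 0.36 and HISAT2 before it, while the submitters' processing notes list fastp 0.23.0 and STAR; annotation release, strand setting and multi-mapped reads are not given in the sources used here. Here genes were filtered with filterByExpr (21298 of 56303 kept), normalized by TMM and tested by edgeR 4.0.16 (quasi-likelihood, condition only, R 4.3.3) with Benjamini-Hochberg adjustment; ± beside a log2 fold change is its standard error. Exon overlaps came from bedtools 2.31.1, GC content and build from GRCh38. DESeq2 1.42.0 was an alternative beside other scalings, filters, corrections and each library left out. The biological coefficient of variation was 3.57%, estimated at 56814946 counts or more per library with counts taken as independent reads. Whether both mates of a read pair were counted was not tested, so a part of it may be sampling noise. Named genes were, per complex, the 2 highest and 2 lowest log2 fold changes and the most abundant gene. From each pathway list they were those with the 2 smallest adjusted p. The other called members, GAPDH, further pathway genes such as COX14 and members singled out for contrast were added after values were seen. 1 called member is counted but not reported by name here. Members and lists were chosen with earlier results of these data known. The steps were tested on simulated counts.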

Additional observations from a re-analysis of the deposited data

How the results depend on the processing

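Over 15 alternatives, the 40 called members kept their sign, and 20 were called in every one. Of the genes named, 57 were followed over these alternatives and gave 855 values. Of these, 82 lost the call, 1 gained one and 15 turned sign, in genes that were not called: NDUFS5 at -0.0083 (upper-quartile normalization), -0.011 (library size alone), -0.038 (gene length correction), -0.028 (GC correction) and -0.00021 (without siNC replicate 2), SDHD at -0.0022 (library size alone), -0.0032 (without siNC replicate 1) and -0.018 (without siNC replicate 2), and ATP5J at -0.0067 (upper-quartile normalization), -0.0089 (library size alone), -0.0037 (gene length correction), -0.026 (GC correction), -0.00065 (without siNC replicate 2), -0.0037 (without siNC replicate 3) and -0.010 (without siFBXL6 replicate 3). Members named above outside this count turned sign too: UQCRC2 kept its sign in 12 of 15 alternatives, and ATP5B and NDUFS1 each in 14, all without a call. With single libraries left out, NDUFS5 log2 fold change, SDHD log2 fold change and ATP5J log2 fold change reached 0.032, 0.081 and 0.042 at most. The cause was not tested.

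DESeq2, with its own filter and size factors, called 10 members higher. The 36 tested members without shared exon bases held 8 higher and 10 lower, since fewer genes were counted there. The median of the members was -0.047 with upper-quartile normalization, -0.050 with library size alone and -0.053 with the gene length correction, where the median of all genes was, in the same order, -0.026, -0.029 and -0.017. With each library left out in turn, counts ran from 7451 to 8298 for all genes, 11 to 14 for members called higher, 18 to 26 for those called lower, 13 to 20 in complex I, 2 to 3 in complex II, 2 to 5 in complex III, 3 to 6 in complex IV and 6 to 7 under ATP synthase, and the median from -0.049 to -0.0058. FBXL6 had a log2 fold change of -0.20 without siFBXL6 replicate 1 and -0.092 without siFBXL6 replicate 2, and was not called under any alternative (adjusted p from 0.112 to 0.521).

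Replicate numbers did not pair the libraries: deviations of libraries with the same number correlated at -0.0108, 7.99e-05 and 0.0133, and not every library correlated best with its own number. With the replicate block, 8408 genes were called, with 16 members higher and 24 lower, and the median was -0.027. Limits remain in what the counts can carry. NDUFC1, the tested member with the lowest mean, had a log2 fold change of -0.10 ± 0.13, so differences of the size of most members' would not be separated there. Exon bases shared with other genes, pseudogene copies and the strand and multi-mapping settings, which are not given in the sources used here, bear on single members. The label numbers were read as those of replicates, which the sources used here do not state. A single time was compared, protein and respiration were not analysed here, and the target transcript did not separate the groups.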

Other observations

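Ubiquinone carries electrons from complexes I and II to complex III. Of 13 genes for its synthesis and transport, 11 were tested, 1 was higher and 2 were lower, with a median log2 fold change of -0.10. That is 27.3% called, against 40.2% of all genes tested. Of genes at or above the lowest respiratory chain member's mean, where all of the 11 but COQ10A lie, 53.6% were called. COQ10B, a ubiquinone-binding protein, had 9.37, 9.23 and 9.3 CPM in siNC and 13.1, 14.5 and 13.8 CPM in siFBXL6 libraries. The groups stood apart, and the log2 fold change of 0.57 ± 0.066 (adjusted p = 9.31e-09) was larger than that of any respiratory chain member. COQ2, which joins the ring to its tail, had 12.5, 13 and 13.3 CPM in siNC and 10.6, 10.6 and 10.9 CPM in siFBXL6 libraries. It was lower in all siFBXL6 libraries, at -0.28 ± 0.064 (adjusted p = 0.000631).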
